A study of Homo sapiens with 6 samples.

Results

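The genes described here are 8 genes of the neural crest and of the Schwann cell lineage that derives from it: ERBB3, EGR2, NGFR, TFAP2A, TFAP2B, SNAI2, ETS1 and FOXD3. They were chosen by name, with earlier results of these data known. All 8 are listed among the 26485 gene symbols of the deposited tables, and 7 of them had enough reads to be tested, out of 13632 tested genes. They were measured by RNA sequencing in AF22, an established human line of neural stem cells. The 3 knockdown libraries came from AF22 cells in which COMMD3 and the COMMD3-BMI1 read-through transcript were targeted (COMMD3/COMMD3-BMI1_KD), and the 3 control libraries from AF22 cells labelled shControl. The labels give the genotype of the knockdown cells as COMMD3/COMMD3-BMI1 knockdown and that of the control cells as WT, and they name no time after the knockdown, no hairpin sequence and no second line. The labels do not say whether the 3 libraries of a group are separate cultures. The p-values therefore set the difference between groups against the spread between these libraries, which may not be that between cultures.

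The neural crest forms at the border of the neural plate, leaves the neural tube by an epithelial-to-mesenchymal transition and gives rise to peripheral neurons, Schwann cells, melanocytes and parts of the face. TFAP2A, TFAP2B, FOXD3, SNAI2 and ETS1 are transcription factors of its specification and delamination. In Schwann cells, neuregulin from axons acts through the receptor pair of ERBB2 and ERBB3, NGFR (the p75 neurotrophin receptor) marks immature cells, and EGR2 (also called KROX20) switches on the myelin genes. Several of these genes also act in the central nervous system, EGR2 in the hindbrain for example.

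Total counts were 9421178, 8574066 and 9692967 in knockdown libraries 1 to 3, and 11579849, 8798045 and 7294687 in control libraries 1 to 3. Levels are CPM (reads of a gene scaled to a fixed library size), with library sizes adjusted by trimmed-mean (TMM) normalisation. COMMD3, the targeted gene, had 12.9, 11.3 and 10.5 CPM in knockdown libraries and 31.7, 29.7 and 27.6 CPM in control libraries, a log2 fold change of −1.37 (adjusted p = 2.34e-12, edgeR quasi-likelihood test). The COMMD3-BMI1 read-through is listed at 0 counts in each library, and BMI1 did not pass the test (adjusted p = 0.206, edgeR). Of the 1342 annotated exon bases of COMMD3, 419 (31.2%) are shared with COMMD3-BMI1 on the same strand. How reads were counted is not given, so the 0 does not show that the read-through was absent. Not all crest or Schwann markers were detected in these counts, and a count of 0 has the same limit for them. Of 8 neural crest markers, SOX10, PAX7 and FOXD3 had 0 counts in all 6 libraries, and of 8 Schwann lineage markers, SOX10 had 0 counts and CDH19 had 1 count in all. The 10 neural stem cell markers summed to between 2448 and 2522 CPM in knockdown libraries and between 2400 and 2555 CPM in control libraries, with HES5 at 0. Most of that sum was VIM (means of 1187 CPM in knockdown and 1150 CPM in control) and NES (703.4 and 659.5 CPM). SOX2 (adjusted p = 0.00909, edgeR) and PROM1 (6.65e-05) were called lower and MSI1 (0.031) higher. SOX2 lost its call without knockdown library 3 (0.0562) and without control library 2 (0.0579). MSI1 lost its call with DESeq2 (0.0928) and with each library left out except knockdown library 3 (0.0517 to 0.23). The 8 neural crest markers, several of them described below, summed to between 179.0 and 182.9 CPM in knockdown and between 171.1 and 178.9 CPM in control libraries. Most of the crest sum was SNAI2. As AF22 is a line of neural stem cells, the libraries are described as neural stem cells that express some genes of these lineages.

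Of the 7 tested members, ERBB3, EGR2, ETS1 and NGFR were lower in knockdown, SNAI2 was higher, and TFAP2B and TFAP2A did not pass the threshold of an adjusted p of 0.05 (edgeR quasi-likelihood test, adjusted over all tested genes). FOXD3 was not detected. Among all tested genes, 33.3% passed the same threshold, 18.1% lower in knockdown and 15.3% higher. The count of 5 called members is given beside that share as a description. The members were chosen with earlier results of these data known, so the comparison is no test. The median size of the log2 fold change was 0.267 over all genes called, and 64 genes were called with a log2 fold change of −1 or less, ERBB3 and EGR2 among them. The groups' libraries did not overlap for 5 of the 7 tested members, and this was so for 44.3% of all tested genes.

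**Figure D1:**
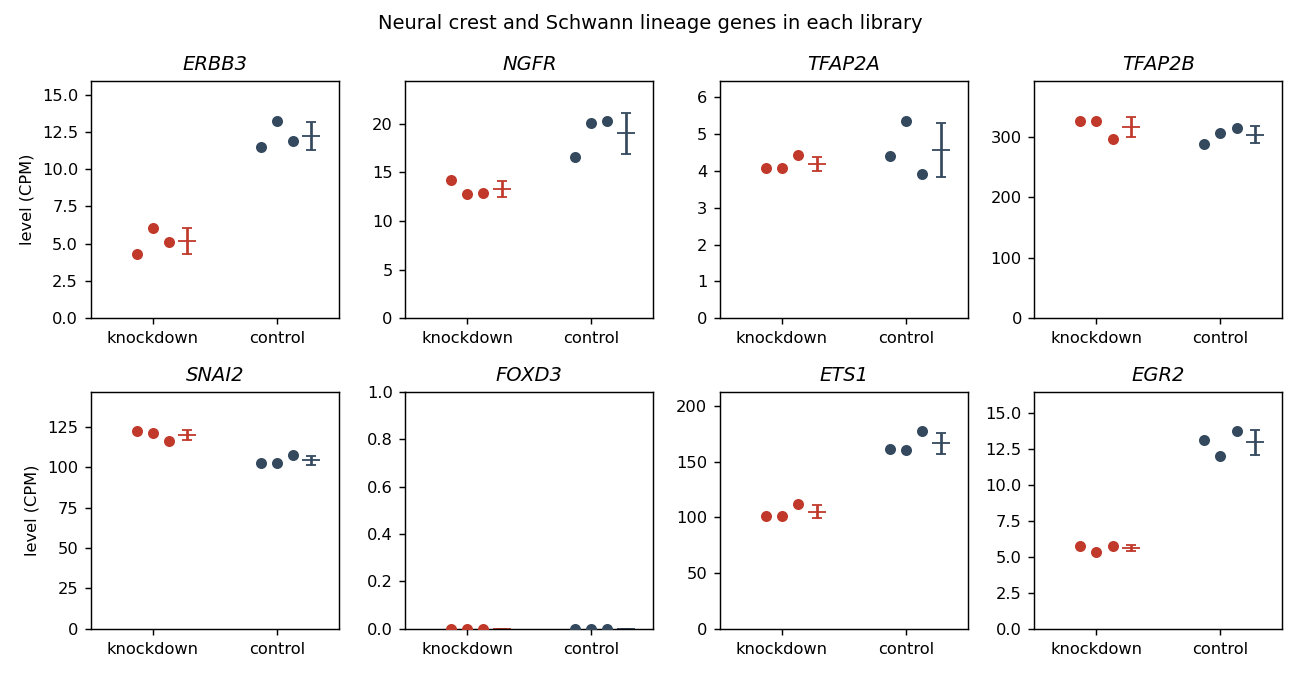
Level of each of the 8 genes in each library, in CPM on a linear axis that starts at 0, with the 3 knockdown libraries on the left of each panel and the 3 control libraries on the right; the bar beside the points is the mean ± SD (n = 3). ERBB3, EGR2, NGFR and ETS1 lie lower in each knockdown library than in any control library, SNAI2 lies higher, TFAP2A and TFAP2B overlap, and FOXD3 is at 0.

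ERBB3 encodes the neuregulin receptor of the Schwann lineage, which binds its ligand but has a weak kinase and signals through a partner such as ERBB2. The gene lies on the plus strand at chr12:56076799-56103505 (GRCh38, GENCODE v29). It had 4.29, 6.05 and 5.14 CPM in knockdown libraries 1 to 3, and 11.5, 13.3 and 11.9 CPM in control libraries 1 to 3. Every knockdown library lay below every control library. The means were 5.16 ± 0.880 CPM in knockdown and 12.2 ± 0.925 CPM in control libraries (SD, n = 3 each), from 143 and 334 reads in all. The log2 fold change was −1.24 (SE 0.147, 95% interval −1.54 to −0.94, adjusted p = 7.72e-08, edgeR), and 22 genes, ERBB3 included, were called lower by at least as much. In these bulk libraries fewer cells expressing a gene and less of its RNA per cell cannot be told apart, here and in all results that follow.

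The other receptors of the family did not all move by the same amount. ERBB4, which also binds neuregulins, had 15.1, 18.5 and 14.9 CPM in knockdown libraries and 28.1, 27.2 and 29.1 CPM in control libraries, and fell by 0.80 on the log2 scale (adjusted p = 6.2e-08, edgeR). EGFR had 21.3, 24.1 and 32.1 CPM in knockdown libraries and 36.7, 40.6 and 42.7 CPM in control libraries, and fell by 0.61 on the log2 scale (adjusted p = 1.03e-05, edgeR). Neither gene's groups overlapped, and knockdown library 3 was the highest of its group for EGFR. ERBB2, the partner of ERBB3, had 147.6 ± 4.87 CPM in knockdown and 153.2 ± 5.46 CPM in control libraries, a log2 fold change of −0.05 with a 95% interval from −0.15 to 0.04 (adjusted p = 0.375, edgeR). For every 100 counts of ERBB2 there were 3.02, 4.03 and 3.41 counts of ERBB3 in knockdown libraries and 7.64, 8.31 and 7.95 in control libraries. Against ERBB4 the ratio was 28.5, 32.7 and 34.5 counts of ERBB3 per 100 in knockdown libraries and 40.8, 48.7 and 40.9 in control libraries. Both ratios were lower in each knockdown library than in any control library. The exact two-sided permutation p was 0.1 for each, the smallest that 3 against 3 libraries allow, and 0.117 after adjustment over the 7 ratios computed.

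Of 18 genes of the neuregulin pathway, 16 were tested; 6 were lower, 3 were higher and 7 did not pass; the list's median log2 fold change was −0.11 against 0.002 over all tested genes. Beyond EGFR and ERBB4, ERBB2IP (current name ERBIN), which binds ERBB2, fell by 0.24 on the log2 scale (adjusted p = 9.52e-05, edgeR), and RNF41, PIK3R1 and PTPN11 were lower by 0.16 or less. RNF41 (adjusted p = 0.0485, edgeR) lost its call with any 1 library left out (0.0536 to 0.244), with RLE, upper-quartile or library-size scaling (0.0541 to 0.108), with no filter (0.0759) and with DESeq2 (0.185). PIK3R1 lost its call without knockdown library 1 or control library 3, and PTPN11 without knockdown library 1 or 2 or control library 1. Without knockdown library 1, 3 genes of the list were called lower. ADAM17, the protease that sheds neuregulins and EGF ligands, had 106.7 ± 0.350 CPM in knockdown and 91.0 ± 5.38 CPM in control libraries (log2 fold change 0.22, adjusted p = 0.000511, edgeR). Among the ligands, NRG2 had 9.01, 7.68 and 7.61 CPM in knockdown libraries and 5.96, 6.06 and 5.46 CPM in control libraries. NRG2 passed with a log2 fold change of 0.47 (adjusted p = 0.0165, edgeR), but not without knockdown library 1 (0.0986) or with DESeq2 (0.093). NRG1, the main axonal ligand of Schwann cells, had 35 reads in knockdown and 38 in control libraries and did not pass (log2 fold change −0.14, 95% interval −0.80 to 0.53). NRG3 had 1 read in knockdown and 4 in control libraries, and NRG4 had none.

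EGR2 encodes a zinc finger transcription factor of the early growth response family, needed for myelination by Schwann cells and expressed in the hindbrain. The gene lies on the minus strand at chr10:62811996-62919900 (GRCh38, GENCODE v29). It had 5.76, 5.35 and 5.76 CPM in knockdown libraries 1 to 3, and 13.1, 12.0 and 13.7 CPM in control libraries 1 to 3. The knockdown libraries lay close together and below every control library. The means were 5.62 ± 0.234 CPM in knockdown and 12.9 ± 0.879 CPM in control libraries (SD, n = 3 each), from 157 and 355 reads in all. The log2 fold change was −1.20 (SE 0.136, 95% interval −1.47 to −0.92, adjusted p = 3.45e-08, edgeR).

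EGR1, the most abundant paralog, moved less than EGR2. EGR1 had 60.0, 69.7 and 76.4 CPM in knockdown libraries and 79.9, 81.2 and 94.3 CPM in control libraries, a log2 fold change of −0.30 (adjusted p = 0.000822, edgeR). The counts of EGR2 per 100 counts of EGR1 were 9.60, 7.68 and 7.54 in knockdown libraries and 16.4, 14.8 and 14.6 in control libraries. The groups did not overlap (exact two-sided permutation p = 0.1, the smallest possible; 0.117 adjusted over the 7 ratios). EGR3 had 3, 5 and 7 reads in knockdown libraries and 11, 15 and 8 in control libraries, too few to be tested. EGR4 had 1 read in all.

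EGR1 and EGR2 are both immediate early genes, whose promoters are known to bind serum response factor at CArG boxes. The RefSeq promoters (GRCh38.p14, from 250 bases before to 50 after the start) are shown to compare that motif in the pair of paralogs, with CArG boxes, searched on both strands, in capitals.
EGR2 (chr10:62816317-62816616, minus strand): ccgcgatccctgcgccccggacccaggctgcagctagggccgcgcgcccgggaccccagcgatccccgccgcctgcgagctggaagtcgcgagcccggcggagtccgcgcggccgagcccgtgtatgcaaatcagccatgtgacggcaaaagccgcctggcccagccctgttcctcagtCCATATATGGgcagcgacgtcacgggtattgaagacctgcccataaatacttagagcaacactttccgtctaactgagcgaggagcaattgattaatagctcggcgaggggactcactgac
EGR1 (chr5:138465229-138465528, plus strand): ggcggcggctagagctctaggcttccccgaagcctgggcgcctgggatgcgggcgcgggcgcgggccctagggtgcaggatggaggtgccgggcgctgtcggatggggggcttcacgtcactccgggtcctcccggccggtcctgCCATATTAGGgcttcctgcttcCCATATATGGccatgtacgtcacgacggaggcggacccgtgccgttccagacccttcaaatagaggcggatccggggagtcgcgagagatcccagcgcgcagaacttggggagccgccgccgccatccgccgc
The EGR2 promoter holds 1 box, which begins 71 bases before the start, and it is 1 of 3 EGR2 starts in the table, the others holding none. The EGR1 promoter holds 2, at 105 and 83 bases before the start. The motif occurs in 454 of 35116 promoters of the table (1.29%) and in none of those listed for TFAP2A, TFAP2B, FOXD3, NAB1, NAB2, ERBB2 or ERBB4. These letters describe the window and show no binding.

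Factors that act with EGR2 were tested for 11 of 14 genes; 3 were lower, 1 was higher and 7 did not pass; the list's median log2 fold change was −0.02. NAB1 and NAB2, which bind EGR proteins and are themselves targets of EGR factors, were lower together with EGR1. NAB1 had 75.4, 68.0 and 70.2 CPM in knockdown libraries and 87.4, 87.8 and 86.2 CPM in control libraries (log2 fold change −0.29, adjusted p = 3.62e-05, edgeR). NAB2 had 86.8, 88.0 and 80.3 CPM in knockdown libraries and 99.5, 102.4 and 102.8 CPM in control libraries (log2 fold change −0.26, adjusted p = 0.000113, edgeR). For both genes the groups were apart. NFATC4, a factor that works with calcineurin signalling in Schwann cells, was the gene that rose (log2 fold change 0.19, adjusted p = 0.00261, edgeR); without knockdown library 3, 2 genes of the list were called higher, POU3F1 being added. With all libraries POU3F1, the factor that precedes EGR2 in promyelinating Schwann cells, had a log2 fold change of 0.15 (adjusted p = 0.124, edgeR), and POU3F2 one of 0.03 (adjusted p = 0.665, edgeR). SOX10, which acts on EGR2 in Schwann cells, had 0 counts in every library.

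**Figure D2:**
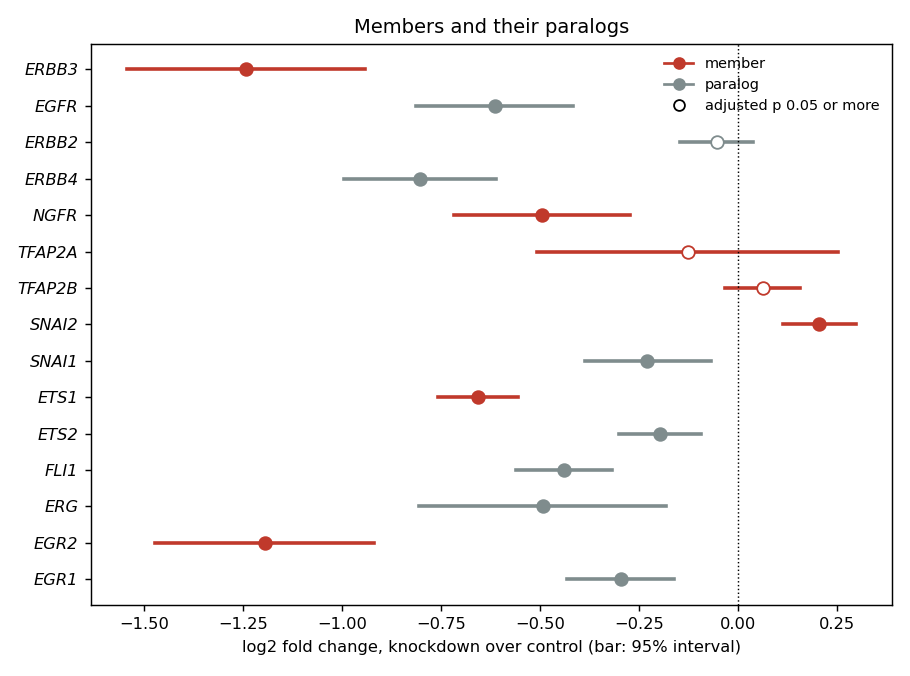
Log2 fold change of knockdown over control (points) with its 95% interval (bars) from the edgeR fit, for the 7 tested members (red) and 8 of their tested paralogs (grey); open points did not pass an adjusted p of 0.05. ERBB3 and EGR2 lie furthest to the left, ERBB2, TFAP2A and TFAP2B are open, and SNAI2 lies to the right of 0 while SNAI1 lies to its left.

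NGFR encodes p75, which binds all neurotrophins and works with TRK receptors, sortilin and the Nogo receptor. The gene lies on the plus strand at chr17:49495293-49515017 (GRCh38, GENCODE v29). It had 14.2, 12.8 and 12.9 CPM in knockdown libraries 1 to 3, and 16.6, 20.1 and 20.3 CPM in control libraries 1 to 3. Control library 1 was the lowest of its group and still lay above all knockdown libraries. The means were 13.3 ± 0.815 CPM in knockdown and 19.0 ± 2.10 CPM in control libraries (SD, n = 3 each), from 371 and 513 reads in all. The log2 fold change was −0.49 (SE 0.109, 95% interval −0.72 to −0.27, adjusted p = 0.000713, edgeR). Of the 3676 annotated exon bases of NGFR, 652 (17.7%) are shared with genes on the opposite strand. The strand setting of the counting is not given in the sources used here, so reads from that part may belong to either.

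Of 16 neurotrophins, receptors and p75 partners, 11 were tested; 3 were lower, none was higher and 8 did not pass; the list's median log2 fold change was 0.04. At an unadjusted p under 0.05 (edgeR), 3 were higher and 3 lower, DESeq2 called 0 higher, and leaving out 1 library gave between 0 and 2 higher, with 2 without knockdown library 1. SORT1 encodes sortilin, the co-receptor of p75 for proneurotrophins. It had 159.9, 158.2 and 149.9 CPM in knockdown libraries and 178.5, 186.9 and 171.6 CPM in control libraries (log2 fold change −0.20, adjusted p = 0.000837, edgeR). TNFRSF19, a TNF receptor family member that can stand in for p75 in the Nogo receptor complex, had 32.4, 34.7 and 38.7 CPM in knockdown libraries and 46.9, 48.9 and 44.0 CPM in control libraries (log2 fold change −0.41, adjusted p = 3.79e-05, edgeR). The groups did not overlap for either gene. NTRK2, the receptor for BDNF, had 3.35, 3.14 and 2.88 CPM in knockdown libraries and 4.66, 6.28 and 4.62 CPM in control libraries. Its log2 fold change of −0.73 passed (adjusted p = 0.00503, edgeR), but not without control library 2 (0.0507). The counts of NGFR per 100 counts of SORT1 were 8.91, 8.09 and 8.58 in knockdown libraries and 9.28, 10.8 and 11.8 in control libraries. These ranges lie next to each other without overlap (exact two-sided permutation p = 0.1, the smallest possible; 0.117 adjusted). TNFRSF21, the paralog of NGFR included, did not pass (log2 fold change 0.05, adjusted p = 0.437, edgeR).

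ETS1 encodes a transcription factor that acts in delamination of the cranial neural crest, shown in chick, and in endothelial and blood cells. The gene lies on the minus strand at chr11:128458761-128587558 (GRCh38, GENCODE v29). It had 101.5, 101.6 and 111.9 CPM in knockdown libraries 1 to 3, and 160.8, 160.5 and 177.1 CPM in control libraries 1 to 3. The groups were far apart compared with their own spread, and library 3 was the highest in both. The means were 105.0 ± 5.99 CPM in knockdown and 166.2 ± 9.48 CPM in control libraries (SD, n = 3 each). The log2 fold change was −0.66 (SE 0.0493, 95% interval −0.76 to −0.56, adjusted p = 5.09e-12, edgeR), from 2930 and 4532 reads.

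The 3 related ETS factors tested were lower too, each with a smaller log2 fold change than ETS1. FLI1 had 48.9, 49.1 and 56.3 CPM in knockdown libraries and 67.4, 71.4 and 71.5 CPM in control libraries (log2 fold change −0.44, adjusted p = 7.51e-07, edgeR). ETS2 had 83.2, 78.2 and 83.3 CPM in knockdown libraries and 93.8, 88.3 and 99.5 CPM in control libraries (log2 fold change −0.20, adjusted p = 0.00299, edgeR). ERG had 5.44, 6.75 and 7.10 CPM in knockdown libraries and 8.46, 8.34 and 10.8 CPM in control libraries, with a log2 fold change of −0.49 (adjusted p = 0.0126, edgeR). The ERG call was lost without knockdown library 1 (0.0907), without control library 3 (0.0706) and with DESeq2 (0.0622). The counts of ETS1 per 100 counts of ETS2 were 121.9, 129.9 and 134.3 in knockdown libraries and 171.4, 181.8 and 178.0 in control libraries. The groups did not overlap (exact two-sided permutation p = 0.1, the smallest possible; 0.117 adjusted). Endothelial cells are known for these factors, and all 4 endothelial markers were detected: they summed to between 92.3 and 104.4 CPM in knockdown and between 136.5 and 144.2 CPM in control libraries, most of it KDR. PECAM1, CDH5 and KDR passed as lower and TEK did not (3 of 4 tested), PECAM1 not passing without knockdown library 1 (0.0507). None of the 4 was at 0, and their part in the ETS results was not tested.

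**Figure D3:**
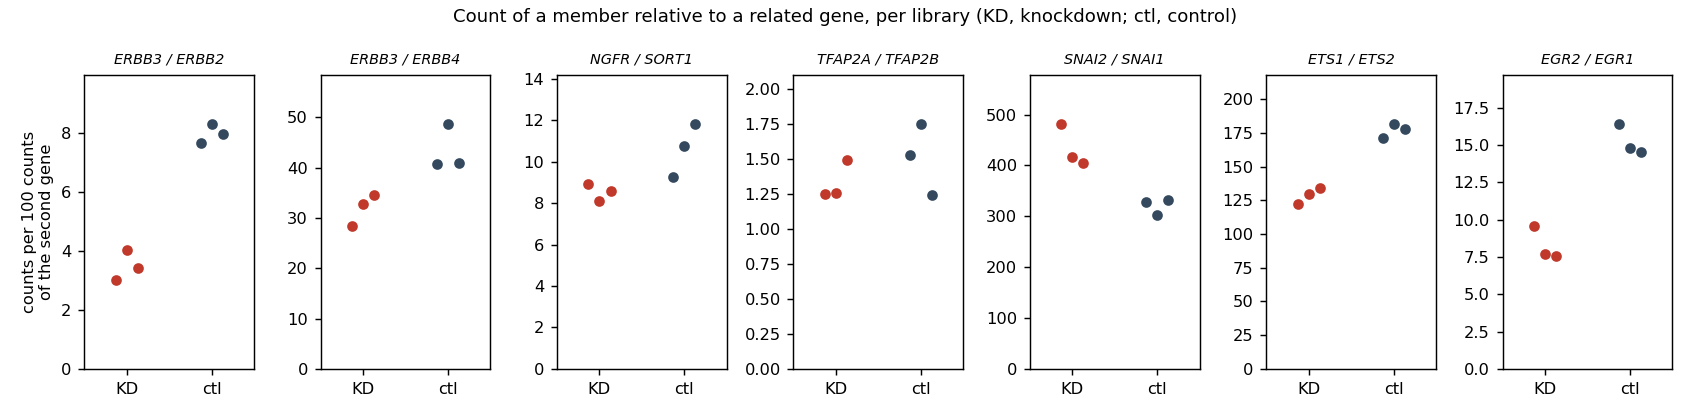
Counts of a member per 100 counts of a related gene in each library (linear axes from 0), with the 3 knockdown libraries (KD) left of the 3 control libraries (ctl) in each of 7 panels. The groups are apart in 6 panels, with SNAI2 over SNAI1 the one that is higher in knockdown, and overlap for TFAP2A over TFAP2B.

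ERBB3 and ETS1 hold, in their 3′ UTRs, a 7-base word, TCATCCA, that had been picked from these same data because genes holding it were lower in knockdown. The sites are shown because they set these 2 genes apart from the other members, with the word in capitals and 30 bases in all, read from GENCODE v29 transcripts (GRCh38).
ERBB3 (chr12:56103327-56103356, plus strand): agaagccattcTCATCCAgcagtgagaagc
ETS1, site 1 (chr11:128462029-128462058, minus strand): atttttaaaaaTCATCCAtgaaaaagtgtc
ETS1, site 2 (chr11:128459905-128459934, minus strand): actttctcaaaTCATCCAccgttcctatta
The ERBB3 word begins at base 1283 of a 3′ UTR of 1450 bases, and the ETS1 words at bases 314 and 2438 of 3600. None was found in the 3′ UTRs of EGR2, NGFR, TFAP2A, TFAP2B, SNAI2 or FOXD3, so that 2 of the 4 members that were lower hold the word and 2 do not. For each gene the longest annotated 3′ UTR was searched. Of 12040 tested genes with a 3′ UTR of 50 bases or more, 1427 (11.9%) hold it. Holders and the others were not matched for 3′ UTR length. Among holders the median log2 fold change was −0.11 and 38.8% were called lower, and among the others these were 0.01 and 16.1%. Since the word was chosen on these libraries, the shares are a description, and whether the word has a part in the ERBB3 or ETS1 values was not tested.

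SNAI2 (SLUG) encodes a zinc finger repressor of the SNAIL family that acts in epithelial-to-mesenchymal transition, and it was the member that rose. The gene lies on the minus strand at chr8:48917604-48921740 (GRCh38, GENCODE v29). It had 122.2, 121.3 and 116.1 CPM in knockdown libraries 1 to 3, and 102.5, 102.6 and 107.3 CPM in control libraries 1 to 3. Every knockdown library lay above every control library. The means were 119.9 ± 3.27 CPM in knockdown and 104.1 ± 2.76 CPM in control libraries (SD, n = 3 each). The log2 fold change was 0.21 (SE 0.0453, 95% interval 0.11 to 0.30, adjusted p = 0.000704, edgeR), from 3338 and 2851 reads, which is below the median size of 0.267 over all genes called.

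SNAI1, its closest paralog, had 25.3, 29.1 and 28.7 CPM in knockdown libraries and 31.3, 33.9 and 32.4 CPM in control libraries. The groups did not overlap, and the log2 fold change of −0.23 passed with an adjusted p of 0.0237 (edgeR), but not without knockdown library 1 (0.165), without control library 2 (0.101) or with DESeq2 (0.112). The counts of SNAI2 per 100 counts of SNAI1 were 482.2, 416.8 and 404.7 in knockdown libraries and 327.9, 302.4 and 331.6 in control libraries. The ratio was higher in each knockdown library (exact two-sided permutation p = 0.1, the smallest possible; 0.117 adjusted). SNAI3 had 8 reads in knockdown and 6 in control libraries and was not tested.

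TFAP2B and TFAP2A encode AP-2 factors, which specify the neural plate border and crest. They lie on chromosome 6, TFAP2B on the plus strand at chr6:50818723-50847613 and TFAP2A on the minus strand at chr6:10393186-10419659 (GRCh38, GENCODE v29). TFAP2B had 326.7, 325.2 and 296.8 CPM in knockdown libraries and 288.6, 306.6 and 315.1 CPM in control libraries. The groups overlapped, knockdown library 3 lying below 2 of the 3 control libraries. The log2 fold change was 0.06 with a 95% interval from −0.03 to 0.16 (adjusted p = 0.33, edgeR), from 8799 and 8275 reads. TFAP2A had 4.08, 4.07 and 4.42 CPM in knockdown libraries and 4.40, 5.37 and 3.92 CPM in control libraries, again overlapping. Its log2 fold change was −0.13 (adjusted p = 0.638, edgeR), and with 117 and 126 reads the 95% interval reaches from −0.51 to 0.25.

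Counts of TFAP2A per 100 counts of TFAP2B were 1.25, 1.25 and 1.49 in knockdown libraries and 1.53, 1.75 and 1.25 in control libraries, which overlap (exact two-sided permutation p = 0.4, adjusted 0.4). Of the exon bases of TFAP2A, 664 of 4641 (14.3%) are shared with antisense genes, of which TFAP2A-AS1 had 9, 6 and 6 reads in knockdown libraries and 12, 9 and 6 in control libraries. The other AP-2 genes were near absent: TFAP2C had no read, TFAP2D had 1 and TFAP2E had 12 reads in knockdown and 11 in control libraries.

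FOXD3, a forkhead repressor of premigratory crest that holds back melanocyte fate, lies on the plus strand at chr1:63323041-63325126 (GRCh38, GENCODE v29). It had 0 counts in all 6 libraries. With 3 counts as the limit that a count of 0 allows, this permits up to between 0.259 and 0.42 CPM in 1 library and up to 0.0542 CPM over all 6, and no fold change can be given. Of its paralogs, FOXD1 had 23 reads in knockdown and 37 in control libraries and did not pass (adjusted p = 0.137, edgeR), and FOXD2 had 1 read in all.

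Divided by annotated exon length, the levels of the members spanned a wide range. In knockdown libraries the order was TFAP2B (54.8 ± 2.92 CPM per kb), SNAI2 (49.4 ± 1.35), ETS1 (18.9 ± 1.08), NGFR (3.62 ± 0.222) and EGR2 (1.79 ± 0.0747). In control libraries it was the same, with 52.6 ± 2.34 CPM per kb for TFAP2B, 42.9 ± 1.14 for SNAI2, 30.0 ± 1.71 for ETS1, 5.17 ± 0.572 for NGFR and 4.13 ± 0.280 for EGR2 (SD, n = 3 throughout). At the low end the order differed between the groups. ERBB3 had 0.578, 0.815 and 0.692 CPM per kb in knockdown libraries, below the 0.880, 0.878 and 0.953 of TFAP2A there. In control libraries ERBB3 had 1.55, 1.78 and 1.60 CPM per kb, above the 0.949, 1.16 and 0.845 of TFAP2A. No neighbours in the order overlapped over the libraries of a group. Ranked among 12837 genes by CPM per kb, TFAP2B stood at percentile 91.6 in knockdown and 91.1 in control, ETS1 at 64.7 in knockdown and 78.9 in control, EGR2 at 15.0 in knockdown and 25.4 in control, and ERBB3 at 6.33 in knockdown and 14.3 in control.

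Other transcription factors of the neural plate border and crest, 20 genes of which 13 were tested, were lower more often than higher: 7 were lower, 3 were higher and 3 did not pass; the list's median log2 fold change was −0.23. SOX9, which primes crest cells for delamination, had 149.3 ± 8.68 CPM in knockdown and 186.6 ± 4.35 CPM in control libraries (log2 fold change −0.32, adjusted p = 2.21e-06, edgeR). TWIST1, a mesenchymal factor of cranial crest, had 31.5 ± 3.27 CPM in knockdown and 43.1 ± 0.567 CPM in control libraries (log2 fold change −0.45, adjusted p = 1.64e-05, edgeR). GBX2, a factor of the border and of the anterior hindbrain, fell by 0.28 on the log2 scale (adjusted p = 1.12e-05, edgeR). The largest change of the list was a rise: HES4, a HES family repressor, had 17.7, 14.1 and 13.5 CPM in knockdown libraries and 4.83, 2.86 and 4.34 CPM in control libraries (log2 fold change 1.89, adjusted p = 1.23e-10, edgeR). Each knockdown library of HES4 lay above each control library. HES4 was also the 1 gene of the list called higher without knockdown library 1 and without control library 1, while MSX1 lost its call. PAX3 did not pass (log2 fold change 0.04, adjusted p = 0.809, edgeR), and 6 genes of the list, SOX10 and PAX7 among them, had no reads.

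Of 20 genes of crest delamination and migration, 19 were tested; 10 were lower, 3 were higher and 6 did not pass; the list's median log2 fold change was −0.15. ZEB1, a repressor of E-cadherin, had 110.6, 109.2 and 112.6 CPM in knockdown libraries and 138.3, 147.9 and 149.8 CPM in control libraries (log2 fold change −0.39, adjusted p = 6.91e-08, edgeR). ITGA4, the integrin subunit with which crest cells bind fibronectin, moved the other way, with 40.0, 43.9 and 51.4 CPM in knockdown libraries and 32.7, 30.3 and 27.5 CPM in control libraries (log2 fold change 0.57, adjusted p = 2.58e-06, edgeR). The groups did not overlap for either gene. RHOB, a small GTPase of delaminating crest cells, fell by 0.26 on the log2 scale (adjusted p = 4.65e-05, edgeR), while CDH2, the cadherin of the neural tube, had a log2 fold change of 0.001 (adjusted p = 0.992, edgeR). All 4 mesenchymal markers were detected and summed to between 146.3 and 164.3 CPM in knockdown and between 169.0 and 186.9 CPM in control libraries, COL1A1 being called higher and PDGFRB and LUM lower. LUM, whose groups overlap (adjusted p = 0.0465, edgeR), lost its call with upper-quartile scaling (0.0639), library-size scaling (0.0891), DESeq2 (0.186) and each library left out except control library 3. The markers' part in these counts was not tested.

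Of 20 Schwann lineage genes, 13 were tested; 3 were lower, 3 were higher and 7 did not pass; the list's median log2 fold change was −0.11. S100B, a calcium-binding protein of Schwann cells that other glia and neural progenitors also express, had 49.5, 44.8 and 42.1 CPM in knockdown libraries and 70.5, 68.0 and 70.6 CPM in control libraries (log2 fold change −0.62, adjusted p = 1.53e-09, edgeR). CNP, a myelin enzyme, and GAP43, a growth-associated protein of immature Schwann cells and neurons, rose: CNP by 0.29 (adjusted p = 5.55e-06, edgeR) and GAP43 by 0.42 (adjusted p = 2.72e-05, edgeR) on the log2 scale. PMP22, a myelin gene on which EGR2 is known to act in Schwann cells, did not pass, with 139.1 ± 4.68 CPM in knockdown and 137.8 ± 6.05 CPM in control libraries (adjusted p = 0.792, edgeR). The 8 Schwann markers, ERBB3 and EGR2 among them, summed to between 196.8 and 202.4 CPM in knockdown and between 231.4 and 242.0 CPM in control libraries, and S100B accounts for most of that gap. Of the paralogs of the members, 11 of 19 were tested; 7 were lower, none was higher (0 also at an unadjusted p under 0.05 with edgeR, and with DESeq2) and 4 did not pass; the list's median log2 fold change was −0.30.

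**Figure D4:**
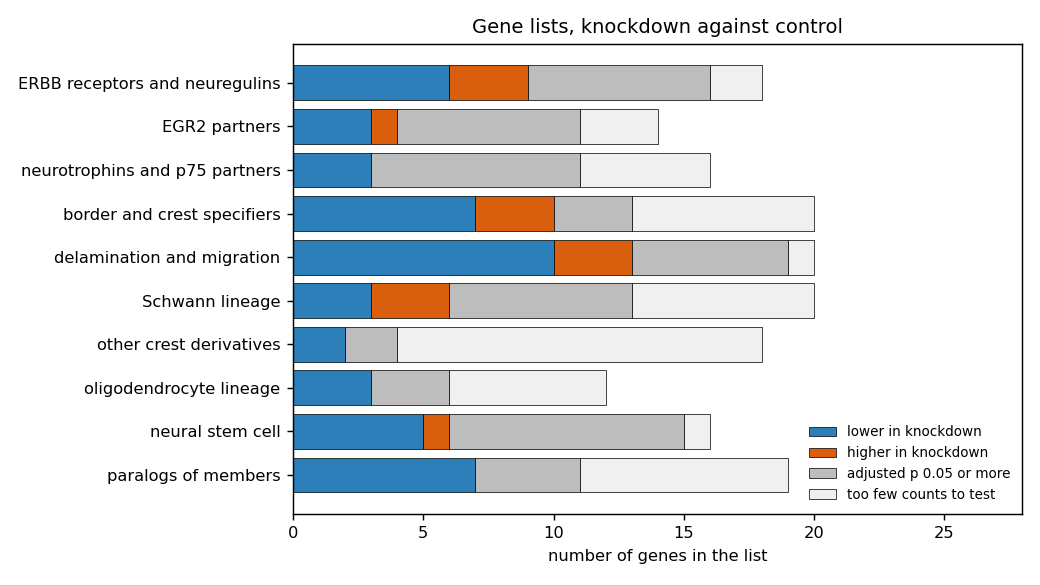
Number of genes in each of 10 lists that were lower in knockdown (blue), higher in knockdown (orange), tested with an adjusted p of 0.05 or more (dark grey) or not tested for too few counts (light grey), from the edgeR fit. The delamination and migration list has the most genes lower (10 of 19 tested), and the list of other crest derivatives has the fewest tested (4 of 18).

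The genes whose profile over the 6 libraries was most like that of a member were found by the Pearson correlation of log2 CPM among 11646 genes with a mean of 5 CPM or more. They were IGF1R and PHLPP2 for ERBB3 (r = 0.998 for both), CENPN and ARMCX2 for EGR2 (0.998 for both), CERS1 and SMARCE1 for NGFR (0.995 and 0.991), CKAP2 and DIXDC1 for ETS1 (0.999 for both) and BCAT2 and CNPPD1 for SNAI2 (1.00 and 0.999). The values are a description over 6 libraries that fall into 2 groups, and such values were common. A correlation above 0.9 was reached by 1450 genes for EGR2, 1441 for ETS1, 1349 for ERBB3, 851 for SNAI2 and 722 for NGFR, against 71 for TFAP2B and 43 for TFAP2A, for which the groups overlapped.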

How the data were processed

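RNA-seq counts per gene symbol were analysed for 6 libraries, each made from 700 ng of total RNA with a directional kit, per the labels' protocols. The authors deposited whole-number read counts that were not normalised. Tools in the submitters' processing notes are STAR 2.7.10a, Trim Galore 0.6.6 and bedtools, on build hg38. How reads were counted, with what annotation and strand setting, is something the sources used here do not state.

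The test of knockdown against control was edgeR's quasi-likelihood test (version 4.0.16, R 4.3.3; TMM; filterByExpr, which kept 13632 genes with at least 99.858% of each library's counts), with Benjamini-Hochberg adjustment over all tested genes and a threshold of 0.05. The procedure was also run on simulated counts, drawn independently for each library from this fit's own estimates of spread. That run cannot check those estimates. Log2 CPM used a prior count of 2. Intervals and limits at 0 counts cover this fit and counting error only. Coordinates, exon lengths and UTRs come from GENCODE v29, and promoters from RefSeq, which held 4 of the 8 members.

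The members and gene lists were chosen with earlier results of these data known. The text names all members and most of their paralogs, FOXD4L1 being a tested gene whose single result is left out. It also names up to 4 called genes of each list with the smallest adjusted p, markers, and others that complete a count or an account of a pathway. Alternatives were scaling by RLE, by upper quartile or by library size, other filters, DESeq2 1.42.0, limma-voom (limma 3.58.1), a replicate block, each library left out, and an adjusted p under 0.01. Single results of some listed genes are not reported here.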

Additional observations from a re-analysis of the deposited data

How the results depend on the processing

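All 7 tested members kept their direction and their side of the threshold under the 15 alternatives. The log2 fold changes ranged from −1.36 to −1.12 for ERBB3, from −1.24 to −1.16 for EGR2, from −0.60 to −0.44 for NGFR, from −0.70 to −0.61 for ETS1, from 0.19 to 0.23 for SNAI2, from 0.03 to 0.11 for TFAP2B and from −0.20 to −0.002 for TFAP2A. The count of all genes called was 4545, and 3608 to 4297 with a library left out, 2877 with DESeq2 and 2943 at an adjusted p under 0.01. Of 118 other list and marker genes, 35 lost or gained a call under at least 1 alternative. None changed direction while called in the main fit or in the alternative. For genes called in neither, a change of sign was not counted. The counts of the lists moved as follows. ERBB and neuregulin genes higher (3) were 1 with DESeq2 and 1 at the stricter threshold, and those lower (6) were 3 at the stricter threshold and 3 to 5 with a library left out. Border factors higher (3) were 1 with DESeq2, 1 at the stricter threshold and 1 to 3 with a library left out. Neural stem genes higher (1) were 2 with library-size scaling, 0 with DESeq2, 0 at the stricter threshold and 0 to 1 with a library left out. Genes of the p75 list higher (0) were 1 with upper-quartile scaling, 2 with library-size scaling, 2 with no filter and 0 to 2 with a library left out. Oligodendrocyte genes higher (0) were 1 with library-size scaling and 0 to 1 with a library left out. Genes of other crest derivatives higher (0) were 1 with no filter, and EGR2 partners higher (1) were 1 to 2 with a library left out. With the replicate number as a block, EGR2 partners higher were 2, p75 genes higher 1, Schwann genes lower 5, oligodendrocyte genes higher 1 and all genes called 5248, and the members' calls did not change. The numbers are not known to pair the libraries. Deviations of same-numbered libraries correlated at 0.124, 0.021 and 0.145, and those of differently numbered libraries at −0.193 to 0.099. The values for numbers 1 and 3 were thus the highest, while knockdown library 2 correlated more with control library 3 (0.032) than with its own number. The cause of these moves was not tested. Depth limits TFAP2A, EGR3, the neuregulins and FOXD3 most.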

Other observations

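Genes of other neural crest derivatives (melanocytes, sensory and autonomic neurons) were mostly near absent: 4 of 18 were tested and 5 had no read. PMEL, a melanosome protein, had 4.92, 3.96 and 3.70 CPM in knockdown libraries and 8.63, 9.37 and 6.31 CPM in control libraries (log2 fold change −0.97, adjusted p = 6.58e-05, edgeR). KIT, a receptor of melanoblasts and of other cells, had 5.13, 7.33 and 7.10 CPM in knockdown libraries and 10.7, 10.1 and 8.55 CPM in control libraries (log2 fold change −0.61, adjusted p = 0.00231, edgeR). Neither gene's groups overlapped. The melanocyte markers TYR and MLANA had no read, and the 5 melanocyte markers summed to between 7.57 and 9.11 CPM in knockdown and between 11.9 and 14.0 CPM in control libraries. No gene of this list was called higher (0 also at an unadjusted p under 0.05 with edgeR, and with DESeq2). RET, a receptor of enteric crest that was too low to be tested, had 6, 2 and 5 reads in knockdown libraries and 1, 0 and 1 in control libraries.

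The oligodendrocyte lineage of the central nervous system also uses ERBB3 and myelin genes. Of 12 such genes, 6 were tested; 3 were lower, none was higher (1 at an unadjusted p under 0.05 with edgeR, 0 with DESeq2, and 1 called without control library 2) and 3 did not pass. OLIG1, a transcription factor of oligodendrocyte precursors, had 2.30, 4.07 and 2.47 CPM in knockdown libraries and 6.22, 5.26 and 7.57 CPM in control libraries (log2 fold change −1.10, adjusted p = 0.000121, edgeR). CSPG4 (NG2), a proteoglycan of these precursors and of pericytes, had 9.11, 10.01 and 12.2 CPM in knockdown libraries and 17.6, 18.4 and 13.7 CPM in control libraries (log2 fold change −0.68, adjusted p = 9.6e-05, edgeR). The groups were apart for both genes. The 5 oligodendrocyte markers, SOX10 at 0 among them, summed to between 17.1 and 20.7 CPM in knockdown and between 23.5 and 24.5 CPM in control libraries, and their part in the ERBB3 value was not tested. OLIG2 (28 reads in knockdown and 43 in control libraries) did not pass with all libraries (adjusted p = 0.201, edgeR). Among 16 neural stem cell genes, 15 were tested; 5 were lower, 1 was higher and 9 did not pass. The higher gene was MSI1, whose groups overlap. No gene of the list was called higher with DESeq2 or without knockdown library 1 or 2 or control library 1 or 2. Without control library 3, MSI1 lost its call (adjusted p = 0.0638, edgeR) and NES gained one (log2 fold change 0.131, adjusted p = 0.019, edgeR). PLAGL1, an imprinted zinc finger gene, fell by 0.59 on the log2 scale (adjusted p = 1.53e-11, edgeR) and PROM1, which encodes CD133, by 0.26 (adjusted p = 6.65e-05, edgeR).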
